A study of Mus musculus with 4 samples.

Results

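Transcripts of 33 genes that act between late S phase and the end of cell division were followed in RNA sequencing of Jurkat, a line of human leukaemic T cells. The genes were chosen by name, as rows of the deposited table of read counts per gene, and all 33 were found among its 58735 rows and passed the filter on low counts. The line was either left wild-type (2 libraries) or, per its label, had MATR3 knocked out with CRISPR-Cas9 (2 libraries). The MATR3 product, matrin 3, sits in the nuclear matrix and binds RNA. By their labels both groups share the cell line and its growth conditions. The labels name no control guide, clone or time point. Whether a group's libraries are separate cultures is not stated, so the p-values cover only the spread among these 4 libraries, which may be technical.

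Entry into mitosis is driven by CDK1 bound to cyclin A2, B1 or B2, which CDC25 phosphatases switch on. The polo and aurora kinases and TTK then direct spindle assembly and chromosome attachment, while the checkpoint proteins BUB1, BUBR1 (BUB1B), BUB3 and MAD2 hold back CDC20, the activator of the ubiquitin ligase APC/C, until every chromosome is attached. Loss of securin (PTTG1) and cyclin B through APC/C starts anaphase, and kinesins and anillin then complete cytokinesis. Transcripts of most of these genes peak together in G2 and M phase, so in bulk RNA their level depends on both the share of cells in that phase and the amount of RNA per such cell, which cannot be told apart here.

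Facts on the whole series bear on how these values can be read. Library totals ranged from 15008554 to 17477643 reads, and the 33 genes together held 51280 to 65058 of them. The targeted gene was not lower in the libraries labelled knockout. The MATR3 row that could be tested held 19 and 9 wild-type reads, against 42 and 61 reads in the libraries labelled knockout. A second MATR3 row, with 5 and 1 reads against 2 and 2, overlaps its whole span but for a few bases, so reads in the shared stretch may be counted for neither. The label is therefore not checked by these rows, and every direction below compares the libraries carrying that label with wild-type. Of 20 myeloid markers, 17 could be tested and 16 of these were higher, with a summed level of 169.3 and 177.9 CPM (reads per 1e6 reads, with library sizes scaled by TMM factors) in wild-type against 6211 and 6082 CPM in the libraries labelled knockout. ELANE, CSF3R, CD68 and S100A8 were at 0 in both wild-type libraries, and S100A8 was at 0 in the others too. Of 14 T cell markers 13 were lower, with a summed level of 3660 and 3406 CPM against 1478 and 1440.4 CPM. All 13 mitochondrially encoded genes tested were higher, and reads from the mitochondrial chromosome made up 5.31% and 4.92% of the wild-type totals against 9.49% and 9.33%. None of 7 erythroid markers could be tested, and of 5 B cell markers CD79A was lower and PAX5 higher. Over the autosomes and X, the median log2 fold change per chromosome ran from -0.40 (chromosome 21) to 0.62 (chromosome 13). Neither of these holds any of the 33 genes. The part of these differences in the results below was not tested.

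The mitotic genes divided in direction. Of the 33 genes, 14 were higher and 11 lower in the libraries labelled knockout at an adjusted p under 0.05 (edgeR's quasi-likelihood test, Benjamini-Hochberg adjustment over all 15294 genes tested), and 8 did not pass. Across all genes tested, 66% passed, 33.7% higher and 32.3% lower, beside 75.8% of the mitotic genes. Most changes of the mitotic genes were small. Only CENPE and HMMR among the 33 passed the test with a change of at least 2-fold, in 6.06% of the genes, against 26.3% of all genes tested. The median log2 fold change was 0.069 over the 33 genes and 0.017 over all genes tested, and the median size of change without sign was 0.43 against 0.58. Where a library is left out below, its group has 1 library, which is assumed to vary like the other group. The wild-type libraries differed from each other more over the 33 genes (chi-square per gene 12.5) than those labelled knockout (2.46). Calls gained or lost without a wild-type library therefore rest on the closer pair. Calls lost without a library labelled knockout rest on the wider wild-type pair, and fewer of all genes passed there too. CPM values of the groups did not overlap for 27 of the 33 genes, beside 82% of all genes tested. The summed level of the 33 genes was 3735 and 3744 CPM in wild-type against 3498 and 3462 CPM in the libraries labelled knockout.

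**Figure D1:**
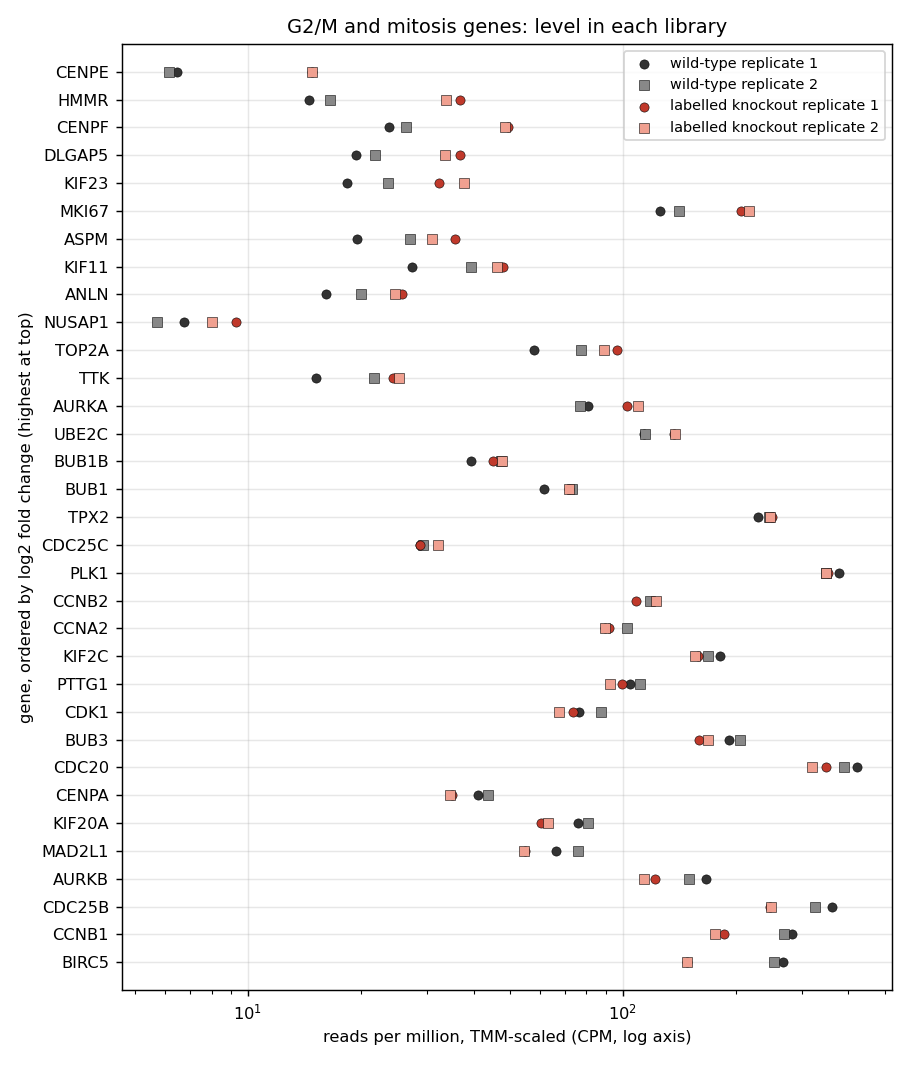
Level of each of the 33 genes in each of the 4 libraries, in TMM-scaled CPM on a log axis, with genes ordered by log2 fold change from the highest (CENPE) to the lowest (BIRC5). Points of the groups are separated at the top and at the bottom and intermingle in the middle, and the genes at the bottom sit at higher levels than most at the top.

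Among the genes that set CDK1 activity, cyclin B1 and CDC25B were lower, while cyclins A2 and B2 and CDC25C showed no difference past the threshold. CCNB1 (chromosome 5, 69167010 to 69178245, on a genome build that the sources used here do not give) read 283 and 269 CPM for wild-type and 186 and 176 CPM for the libraries labelled knockout. Both libraries labelled knockout lay well under both wild-type libraries, and the log2 fold change came to -0.61 with an SE of 0.071 (edgeR adjusted p = 6.28e-12). CDC25B, a phosphatase that activates CDK1 at the centrosome early in mitosis, was at 361 and 326 CPM in wild-type against 246 and 249 CPM in the others, again without overlap (log2 fold change -0.47, SE 0.0707, edgeR adjusted p = 1.43e-08). CDK1, the kinase itself, was at 76.6 and 87.6 CPM against 73.8 and 67.6 CPM. Its fall of 0.21 on the log2 scale (edgeR adjusted p = 0.0197) lost its call without either library labelled knockout (-0.28, adjusted p = 0.07 without replicate 1, and -0.15, adjusted p = 0.362 without replicate 2) and without wild-type replicate 2 (log2 fold change -0.13, adjusted p = 0.129).

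The other cyclins of this group and CDC25C did not pass the test. CCNB2, the second mitotic B-type cyclin, had 121 and 118 CPM in wild-type against 108 and 122 CPM in the libraries labelled knockout, where one library was under and one over both wild-type values. Its log2 fold change of -0.052 had a 95% interval of -0.20 to 0.10. CCNA2, the cyclin of S phase and mitotic entry, was at 89.7 and 103 CPM against 91.8 and 89.5 CPM (log2 fold change -0.085, 95% interval -0.24 to 0.073), with overlapping groups. It passed as lower without wild-type replicate 1 (-0.16, adjusted p = 0.0327). CDC25C, the phosphatase that acts on CDK1 at mitotic entry, was at 28.8 and 29.3 CPM against 28.9 and 32.1 CPM (interval -0.17 to 0.31). FAM53C overlaps CDC25C on the opposite strand over 6421 bases and held 1598 to 2154 reads per library against 423 to 502 for CDC25C. Without a known strand setting reads in shared stretches cannot be told apart.

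The mitotic kinases went in different directions. AURKA, the aurora kinase of centrosomes and spindle poles, had 80.5 and 77.1 CPM in wild-type against 103 and 109.6 CPM in the libraries labelled knockout (log2 fold change 0.43, SE 0.0785, edgeR adjusted p = 1.78e-06). AURKB, the catalytic subunit of the chromosomal passenger complex at centromeres and the midzone, had 167 and 150.5 CPM against 122 and 114 CPM (log2 fold change -0.43, SE 0.0749, adjusted p = 6.69e-07). Neither gene's groups overlapped, and the aurora genes moved by nearly the same amount in opposite directions. The 50 nearest tested genes around AURKB on chromosome 17 had a median log2 fold change of -0.54, and relative to them AURKB was at 0.12 (adjusted p = 0.17), while around AURKA the median was 0.08. TTK, the kinase that starts checkpoint signalling at unattached kinetochores, was at 15.2 and 21.7 CPM against 24.4 and 25.4 CPM, a rise of 0.44 on the log2 scale (edgeR adjusted p = 0.00637). Both wild-type libraries lay under the others, yet replicate 2 was close to them, and without wild-type replicate 1 the log2 fold change was 0.22 and the call was lost (adjusted p = 0.143). Leaving out replicate 2 labelled knockout also ended it with a similar value (0.41, adjusted p = 0.0798), and without wild-type replicate 2 the value was 0.70. Genes around TTK had a median of 0.77, and relative to them TTK was lower (-0.33, adjusted p = 0.0395). PLK1, the polo-like kinase of centrosome maturation and cytokinesis, was at 378 and 348 CPM against 353 and 349 CPM, and its log2 fold change of -0.049 had an interval of -0.19 to 0.091. PLK1 passed the test as lower without wild-type replicate 2 (-0.12, adjusted p = 0.0157).

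Of 7 genes of the spindle assembly checkpoint and of anaphase control, 1 was higher, 3 were lower and 3 did not pass. The shares over all genes tested were 33.7% higher and 32.3% lower. MAD2L1, which encodes the checkpoint protein MAD2, stood at 66.5 and 76.2 CPM in wild-type against 54.7 and 54.5 CPM in the libraries labelled knockout (log2 fold change -0.38, SE 0.0875, edgeR adjusted p = 8.73e-05), with no overlap. CDC20, the APC/C activator, was at 423 and 389 CPM against 348 and 321 CPM (log2 fold change -0.28, edgeR adjusted p = 0.00038), with no call when replicate 2 labelled knockout was left out (-0.22, adjusted p = 0.174). BUB3, the adaptor that carries BUB1 and BUBR1 to kinetochores, was at 192 and 205 CPM against 159 and 168 CPM (log2 fold change -0.28, edgeR adjusted p = 0.000475), with a similar value but no call when replicate 1 labelled knockout was left out (-0.24, adjusted p = 0.109). Its partners did not pass the test. BUB1 was at 61.7 and 73.4 CPM against 71.97 and 71.9 CPM (interval -0.077 to 0.26) and BUB1B at 39.3 and 47.4 CPM against 45.02 and 47.6 CPM (interval -0.10 to 0.30), and for both the libraries labelled knockout lay between the wild-type libraries or just above the higher one. Without wild-type replicate 2, BUB1 (0.21, adjusted p = 0.0182) and BUB1B (0.22, adjusted p = 0.0407) passed the test as higher.

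Of the genes that act once the checkpoint is satisfied, UBE2C was higher and PTTG1 did not pass. UBE2C, the ubiquitin-conjugating enzyme that works with APC/C, was at 114 and 115 CPM in wild-type against 137 and 138 CPM in the others. The groups were tight and separate, and the log2 fold change was 0.27 (SE 0.0742, edgeR adjusted p = 0.00123). Without either library labelled knockout the value was still 0.27, but the adjusted p (0.0666 and 0.068) missed the threshold. Relative to the neighbouring genes (median 0.38) UBE2C was at -0.12 (adjusted p = 0.17). PTTG1, which encodes securin, the inhibitor of separase, was at 104 and 111 CPM against 99.8 and 92.6 CPM and missed the threshold (log2 fold change -0.17, interval -0.32 to -0.012, edgeR adjusted p = 0.0524), but passed it without wild-type replicate 1 (-0.19, adjusted p = 0.0115). The related rows PTTG2 and PTTG3P held at most 2 reads in any library, so few reads were assigned to these copies.

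Of 3 centromere genes, CENPE and CENPF were higher and CENPA lower. CENPE, the kinesin that moves chromosomes to the spindle equator (chromosome 4, 103105806 to 103198409), had 6.49 and 6.16 CPM in wild-type against 14.8 and 14.8 CPM in the libraries labelled knockout, from 113 and 98 reads and 217 and 220 reads. The groups were far apart relative to the spread within them, with a log2 fold change of 1.23 (SE 0.184, adjusted p = 1.64e-08, edgeR quasi-likelihood test), or 2.34-fold. CENPF, a large protein of the kinetochore corona (chromosome 1, 214603195 to 214664588), went from 23.8 and 26.4 CPM to 49.5 and 48.4 CPM (log2 fold change 0.96, SE 0.111, edgeR adjusted p = 3.93e-12). CENPA, the histone H3 variant that marks centromeres, was at 40.99 and 43.8 CPM against 35 and 34.7 CPM, a fall of 0.28 on the log2 scale (edgeR adjusted p = 0.0166). Without replicate 1 or 2 labelled knockout the value was similar (-0.29 and -0.27), but the adjusted p (0.137 and 0.166) missed the threshold. CENPA and SLC35F6 overlap on the same strand over 16943 bases, and SLC35F6 was itself lower (log2 fold change -1.18), so how their reads were divided is unclear.

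Kinesins and spindle proteins were higher for 6 of 9 genes and lower for 2, beside 33.7% higher and 32.3% lower of all genes tested. HMMR, a microtubule-associated protein of spindle poles that also binds hyaluronan (chromosome 5, 163460203 to 163491945), rose from 14.6 and 16.6 CPM to 36.8 and 33.8 CPM (log2 fold change 1.18, SE 0.134, edgeR adjusted p = 2.11e-12). DLGAP5, which stabilises kinetochore fibres, rose from 19.4 and 21.9 CPM to 36.8 and 33.6 CPM (log2 fold change 0.77, adjusted p = 1.66e-07). KIF23, the kinesin of the centralspindlin complex, went from 18.4 and 23.7 CPM to 32.3 and 37.7 CPM (log2 fold change 0.74, adjusted p = 8.09e-07). In all 3 both libraries labelled knockout stood above both wild-type libraries by more than the gap within either group. The rises of ASPM, a spindle pole protein, and KIF11, the kinesin that separates the poles, had separate groups, but in both genes the wild-type libraries were farther apart than wild-type replicate 2 was from the nearest library labelled knockout. ASPM had 19.6 and 27.01 CPM against 35.7 and 31.02 CPM (log2 fold change 0.52, edgeR adjusted p = 0.000345), and KIF11 had 27.3 and 39.4 CPM against 47.8 and 46.2 CPM (0.50, adjusted p = 8.37e-05). For ASPM the call ended when replicate 1 labelled knockout was left out (0.41, adjusted p = 0.0522), and without wild-type replicate 1 its log2 fold change was 0.32. Without wild-type replicate 1 the log2 fold change of KIF11 was 0.27, and relative to its neighbours (median 0.40) it was 0.095 (adjusted p = 0.476).

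The remaining spindle genes changed by less than 0.5 on the log2 scale. KIF20A, the kinesin that brings the passenger complex to the midzone, fell from 76.2 and 80.96 CPM to 60.4 and 63.04 CPM (log2 fold change -0.35, edgeR adjusted p = 0.000193). KIF2C, a microtubule depolymerase at centromeres, was at 182 and 169 CPM against 159 and 156 CPM, and its fall of 0.16 on the log2 scale (edgeR adjusted p = 0.0461) passed the test only narrowly. It failed without wild-type replicate 1 (-0.085, adjusted p = 0.165), without either library labelled knockout (-0.17 and -0.14, adjusted p = 0.26 and 0.371), and with DESeq2 size factors (-0.15, adjusted p = 0.0939). TPX2, the activator of aurora A on spindle microtubules, was at 230.0 and 245 CPM against 250.3 and 248 CPM (interval -0.071 to 0.21) and did not pass the test, while its partner AURKA was higher. NUSAP1, a microtubule-bundling protein, was at 6.77 and 5.72 CPM against 9.28 and 8.02 CPM, from 91 to 136 reads per library. Its call (log2 fold change 0.47, edgeR adjusted p = 0.038) was lost without wild-type replicate 2 or either library labelled knockout (0.34 to 0.57, adjusted p = 0.073 to 0.297). A second protein-coding row, AC087721.2, overlaps NUSAP1 on the same strand over 48050 bases and held 0 reads in all libraries, so reads from the stretch they share may have gone to neither row and the level of NUSAP1 is uncertain.

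Genes of chromosome structure and cytokinesis were higher for 3 of 4, beside 33.7% of all genes tested. Survivin showed the largest fall of the 33 genes. MKI67, which encodes the proliferation marker Ki-67 that coats mitotic chromosomes, went from 126 and 141 CPM to 207 and 217 CPM (log2 fold change 0.67, SE 0.0731, edgeR adjusted p = 5.39e-13). TOP2A, the topoisomerase that untangles sister chromatids, was at 58.04 and 77.5 CPM against 96.4 and 88.9 CPM (log2 fold change 0.45, adjusted p = 5.45e-06), and ANLN, the anillin of the contractile ring, at 16.2 and 19.97 CPM against 25.8 and 24.7 CPM (0.48, adjusted p = 0.00188). For TOP2A too the wild-type libraries were farther apart than wild-type replicate 2 was from the nearest library labelled knockout, and without wild-type replicate 1 the log2 fold change was 0.28. BIRC5, which encodes survivin, the passenger complex subunit that docks it at centromeres (chromosome 17, 78214186 to 78225636), stood at 268 and 253 CPM in wild-type against 148 and 149 CPM in the libraries labelled knockout. The groups were well separated, and the log2 fold change came to -0.81 with an SE of 0.0715 (edgeR adjusted p = 6.57e-17), or 1.75-fold lower. The 50 nearest tested genes had a median of -0.32, and relative to them BIRC5 was at -0.49 (adjusted p = 7.66e-09).

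**Figure D2:**
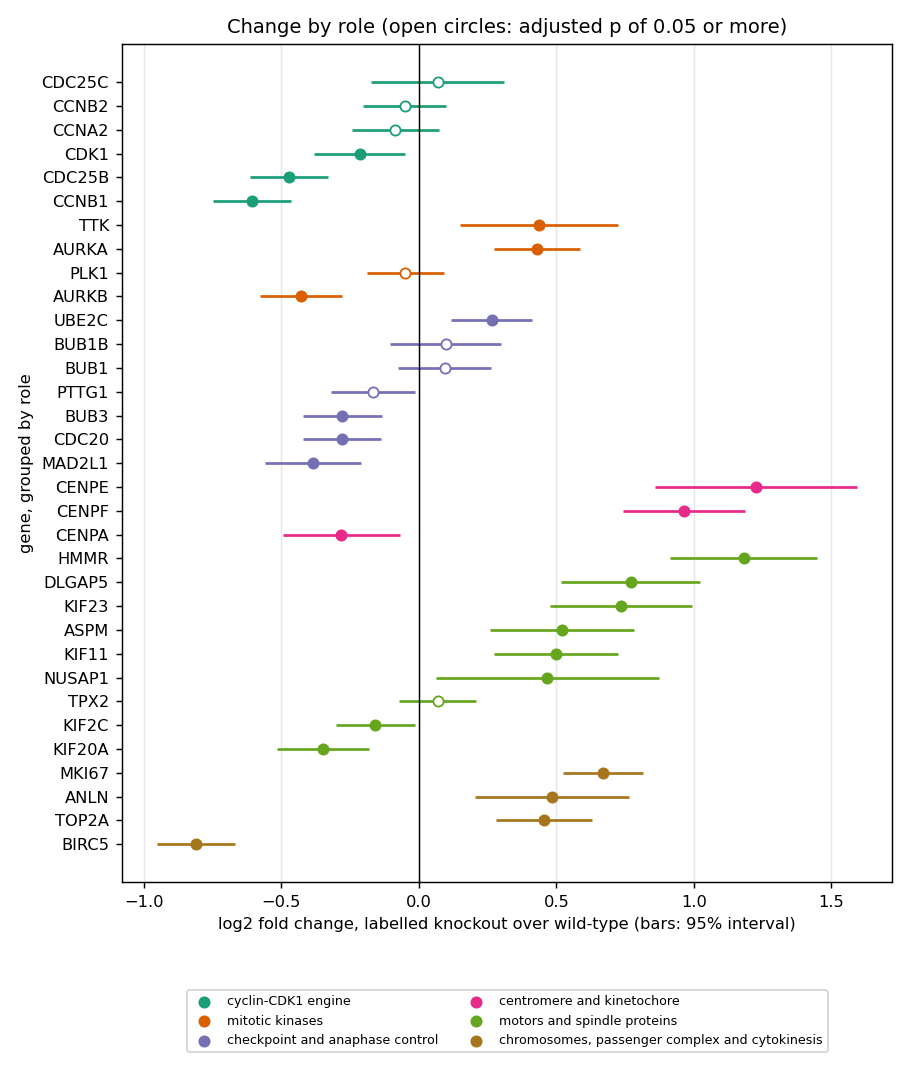
Log2 fold change of the 33 genes in the libraries labelled knockout over wild-type, grouped by role, with 95% intervals from edgeR and open circles where the adjusted p was 0.05 or more. Spindle and outer centromere genes lie mostly to the right of 0, while cyclin B1, CDC25B, AURKB and BIRC5 lie to the left.

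Ratios of reads per length within a library do not depend on library scaling, and they shifted between related genes. AURKA to AURKB stood at 0.37 and 0.392 in wild-type and at 0.643 and 0.738 in the libraries labelled knockout. Cyclin B1 to cyclin B2 stood at 2.57 and 2.49 against 1.88 and 1.58, and CDC25B to CDC25C at 9.70 and 8.59 against 6.60 and 5.997. In each of these 3 pairs the groups did not overlap, while for single genes CPM did not overlap in 82% of all genes tested. Each ratio restates the changes of its genes given above. BUB1 to BUB1B, in contrast, stood at 1.17 and 1.15 in wild-type and at 1.19 and 1.12 in the others, so this ratio overlapped between groups. CCNB2 to CDK1 overlapped too, at 2.21 and 1.90 in wild-type against 2.06 and 2.54. The ratios of CCNB1 to CDK1, CCNA2 to CDK1, CENPF to CENPE and HMMR to TPX2 did not overlap. CENPE to CENPA went from 0.0332 and 0.0295 to 0.0888 and 0.0899, the widest shift among the 10 pairs computed (log2 difference 1.51). With 2 libraries against 2, an exact two-sided permutation test cannot give a p under 0.333, so these ratios carry no test.

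**Figure D3:**
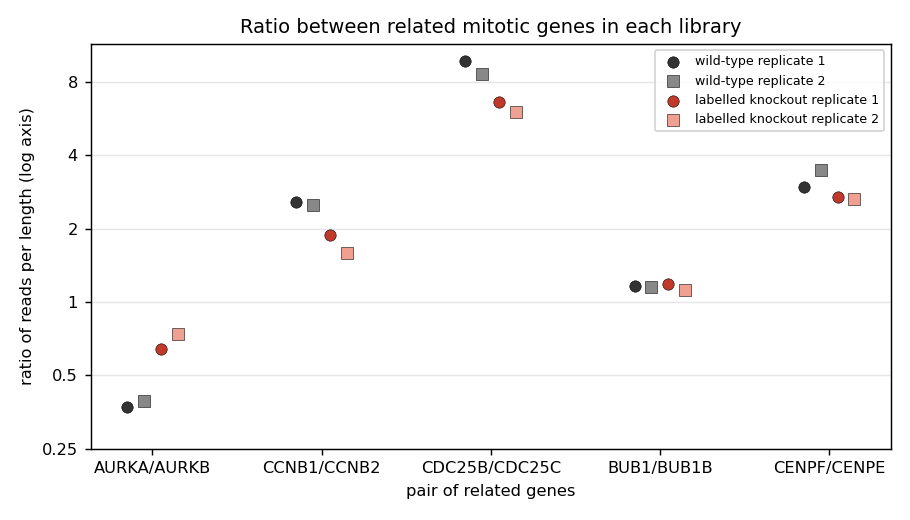
Ratio of reads per length between related genes in each library, on a log axis, with 1 point per library. The AURKA to AURKB ratio is higher and the CCNB1 to CCNB2 and CDC25B to CDC25C ratios are lower in both libraries labelled knockout, while BUB1 to BUB1B stays between 1.12 and 1.19 in all 4.

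The levels per length of the groups had a Spearman's correlation of 0.98 over the 33 genes, although 28 of them changed rank. Per kilobase of the length given in the deposited table, CDC20 was highest at 199 CPM in wild-type against 164 CPM in the libraries labelled knockout. CENPE was lowest at 0.669 and 1.57 CPM. The span from highest to lowest narrowed from 297.4-fold to 104.5-fold. CCNB1 moved from 2nd to 4th place and BIRC5 from 7th to 11th, while UBE2C and PLK1 moved up to 2nd and 3rd. Genes at high levels per length tended to be lower in the libraries labelled knockout and genes at low levels higher. Spearman's correlation between the mean level per length and the log2 fold change was -0.73 across the 33 genes and -0.20 across all 15294 genes tested. These points share their 4 libraries, and level and fold change are computed from the same reads. Level per length also divides by gene length, so it is not separate from the relation to length given next. With plain mean CPM the correlation was -0.65 across the 33 genes and -0.14 across all genes tested.

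Direction also followed gene length as given in the deposited table, a property the choice of genes did not use. That length is not the genomic span, as CENPE has 9444 bases there but lies at 103105806 to 103198409. The 14 genes that were higher had a median length of 5436 bases in the deposited table, and the 11 that were lower 3815 bases. Of the 9 genes of at least 6000 bases, 7 were higher and 1, BUB3, lower, whereas of the 24 shorter genes 7 were higher and 10 lower. Divided at 4000 bases the contrast was weaker, with 9 higher and 3 lower of 15 longer genes and 5 higher and 8 lower of 18 shorter ones. Spearman's correlation between length and log2 fold change was 0.50 over the 33 genes, 0.40 over 122 other genes of mitosis and 0.13 over all genes tested. Beyond the shortest bin (-0.072), all genes tested sloped the same way, from a median log2 fold change of -0.18 among genes of 1450 to 2327 bases to 0.32 among those of at least 10056 bases, when divided into 10 bins of equal number. Some genes under the median member length of 3936 bases were higher as well, namely UBE2C (1286 bases), NUSAP1 (2875 bases), AURKA (2928 bases) and DLGAP5 (3667 bases). With the median of each length bin taken as the reference, 14 of the 33 genes, though not the same 14, were called higher. Lower were 7, not 11 (edgeR, adjusted p under 0.05). Of all 15294 genes tested, 4927 were higher and 5008 lower with this reference, against 5147 and 4941 without it. Among the 33 genes, ASPM (0.20, adjusted p = 0.174), CDC20 (-0.094, adjusted p = 0.239), CENPA, KIF2C and CDK1 lost their call. TPX2 gained one (0.15, adjusted p = 0.0474). MKI67 stayed higher at 0.35 and AURKB lower at -0.24, both over 1.5 times smaller.

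The wild-type libraries differed from each other along the same property. Between wild-type replicate 2 and replicate 1, Spearman's correlation of the log2 difference with length was 0.51 over the 33 genes, as high as between the groups (0.37 to 0.52 over the 4 pairings of a library labelled knockout with a wild-type library). It was 0.15 between the libraries labelled knockout. Over all genes tested the correlation was 0.13 between the wild-type libraries and 0.12 to 0.15 between the groups. Of the 14 genes higher in the libraries labelled knockout, 11 were also higher in wild-type replicate 2 than in replicate 1. This held for 6 of the 8 genes not called and 5 of the 11 lower genes. The wild-type libraries are shared by both sides of this count. Across all genes it held for 59.7% of higher, 53.6% of not called and 38.3% of lower genes. The part of this wild-type difference in the changes above was not tested. None of the 14 higher genes had overlapping groups, so leaving out either wild-type library could hardly reverse a direction. None reversed. The smallest log2 fold change was that of TTK, at 0.22 without wild-type replicate 1.

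**Figure D4:**
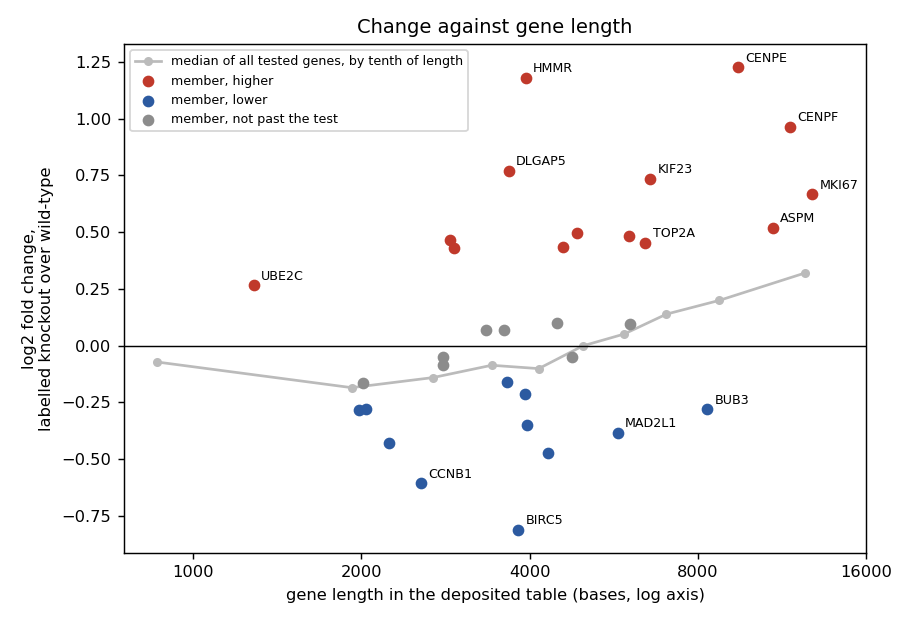
Log2 fold change of the 33 genes against the gene length given in the deposited table, on a log axis and coloured by call. The grey line is the median of all tested genes in each of 10 length bins. Most genes of at least 6000 bases lie above 0, and the grey line rises from -0.18 to 0.32.

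Other genes of mitosis, 122 in 8 lists, also divided, with 37 higher, 51 lower and 34 not called, or 72.1% called beside 66% of all genes tested. The median was -0.11. Of 30 kinetochore genes, 8 were higher and 13 lower. CENPQ, of the inner kinetochore, rose from 3.04 and 4.02 CPM to 11.9 and 11.5 CPM (log2 fold change 1.73, SE 0.214, edgeR adjusted p = 4.06e-11). CENPW, which forms part of the histone-fold complex at centromeres, fell from 37.6 and 38.7 CPM to 17.7 and 17.1 CPM (log2 fold change -1.13, adjusted p = 1.76e-12), and SPC25 of the NDC80 complex was at -1.08. Within that complex NDC80 (0.67) and NUF2 (0.57) rose while SPC25 and SPC24 (-0.59) fell, all past the threshold. These NDC80 complex genes beyond SPC25 were picked after their values were seen.

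Other complexes also held both higher and lower subunits, beside 33.7% higher and 32.3% lower of all genes tested. Of the condensins 75% were called and of the APC/C genes 70.6%, against 66% of all genes tested. For the condensins, which compact chromosomes, 3 of 8 were higher and 3 lower, with NCAPG at 0.69 and SMC4 at 0.69 on the log2 scale against NCAPD3 at -0.46 and NCAPH2 at -0.31. The call of NCAPH2 ended when replicate 2 labelled knockout was left out (-0.27, adjusted p = 0.0752). SMC4 lies among genes with a median of 0.91, and relative to them it was at -0.22. Of 17 APC/C genes 5 were higher and 7 lower. FBXO5, the APC/C inhibitor EMI1, was at 0.64 and the subunit ANAPC4 at 0.52, while the subunits CDC26 and ANAPC2 were at -0.81 and -0.71. Relative to its neighbours ANAPC4 was at 0.13 (adjusted p = 0.468). Its call also ended when replicate 2 labelled knockout was left out, with a similar value (0.46, adjusted p = 0.0574). Of 3 passenger complex partners 2 were lower, with INCENP, the scaffold, falling from 171 and 190.1 CPM to 137 and 131 CPM (log2 fold change -0.43, edgeR adjusted p = 4.13e-07) and HASPIN, the kinase whose histone mark recruits the complex, at -0.35. CDCA8, the borealin gene, missed the threshold (-0.16, edgeR adjusted p = 0.051). HASPIN lost its call without replicate 1 labelled knockout (-0.26, adjusted p = 0.169), and its neighbours had a median of -0.50.

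Of 11 checkpoint partners 4 were higher and 3 lower, or 63.6% called beside 66% of all genes tested. SPDL1 (spindly), which brings dynein to kinetochores, went from 10.96 and 11.9 CPM to 30.7 and 27.7 CPM (log2 fold change 1.35, edgeR adjusted p = 4.15e-13), and KNTC1, a subunit of the RZZ complex that binds spindly, was at 0.89. TRIP13, the ATPase that remodels MAD2, fell from 108 and 109 CPM to 53.9 and 55.8 CPM (log2 fold change -0.98, edgeR adjusted p = 3.73e-18), as MAD2L1 did by a smaller amount. ZW10 was at -0.40, with its call lost without wild-type replicate 2 (-0.24, adjusted p = 0.141), and again on leaving out replicate 2 labelled knockout (-0.24, adjusted p = 0.318). Of 24 further spindle and cytokinesis genes 11 were higher and 8 lower, or 79.2% called. The rises were led by the kinesin KIF20B at 1.68 and DEPDC1 at 1.47, and the falls by FAM83D at -0.67 and the kinesin KIF18B at -0.66.

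Of 12 regulators of CDK1, 6 were lower and 2 higher, or 66.7% called, and of 17 genes of mitotic transcription 9 were lower and 4 higher, or 76.5%, beside 66% of all genes tested. CDC25A, the phosphatase of S phase and mitotic entry, fell from 158 and 150.5 CPM to 88.8 and 84.9 CPM (log2 fold change -0.83, edgeR adjusted p = 3.4e-16), and CKS2, a small subunit bound to CDK1, was at -0.90. BORA, the activator of aurora A towards PLK1, was at 1.46 and ENSA, a phosphatase inhibitor of the Greatwall pathway, at 1.24. ENSA sits on chromosome 1 among genes with a median of 1.5, and relative to them it was lower (-0.26). In the list of mitotic transcription genes, the pocket protein RBL1 (p107) was at 0.80 and NFYB at 0.50, while CDKN1A (p21) and RBBP4 were at -0.75 and -0.66. The call of NFYB was lost without wild-type replicate 1 (0.33, adjusted p = 0.0556). FOXM1 and MYBL2, activators of G2/M genes that were picked after their values were seen, fell from 187 and 166 to 126 and 127 CPM and from 863 and 801 to 545 and 535 CPM (log2 fold changes -0.48 and -0.62, edgeR adjusted p = 3.14e-08 and 2.61e-12).

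Genes of the G1/S transition and DNA replication were mostly lower. Of 35, 28 were lower and 5 higher, beside 32.3% lower and 33.7% higher of all genes tested. At least 2-fold changes made up 22.9% of the list (8 genes, all lower) against 26.3% of all genes tested. The list had a median log2 fold change of -0.72 beside 0.069 for the mitotic genes. Their summed level went from 7327 and 7087 CPM to 4872 and 4743 CPM, while that of the 33 mitotic genes changed from 3735 and 3744 CPM to 3498 and 3462 CPM. No test of the difference between the lists was made. Length and log2 fold change were not positively related in the replication list (Spearman's correlation -0.23 over 35 genes).

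**Figure D5:**
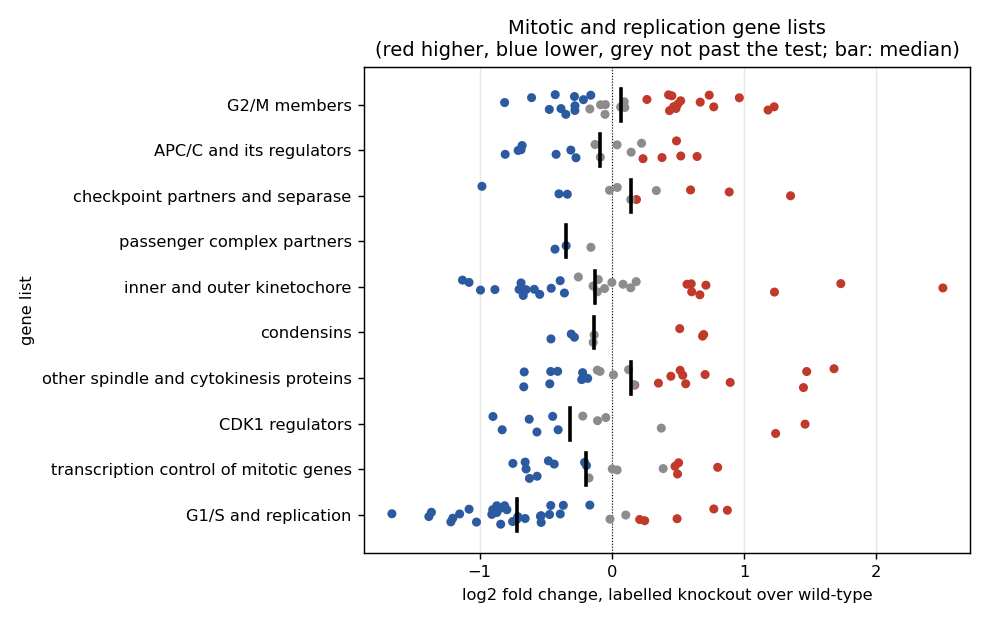
Log2 fold change of every tested gene of the 33 G2/M members, of 8 lists of other mitotic genes and of the G1/S and replication list, with the list median as a black bar. The mitotic lists straddle 0, except the passenger complex partners, which all lie to the left of it. Medians of the mitotic lists run from -0.35 to 0.15, and most replication genes lie to the left of 0 (median -0.72).

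Members were also set beside the genes around them on the chromosome. With the median of the 50 nearest tested genes as the reference, 10 of the 33 members were called higher and 11 lower, against 14 and 11 in the plain test. Of all 15294 genes tested, 4878 were higher and 4773 lower with this reference, against 5147 and 4941 in the plain test. The median log2 fold change of the 50 nearest tested genes ranged from -0.54 around AURKB to 0.77 around TTK. Of the 11 lower genes, 5 lay among neighbours with a positive median, among them CCNB1 (neighbours 0.56) and MAD2L1 (neighbours 0.64). Relative to those neighbours the log2 fold changes were -1.17 for CCNB1 and -1.02 for MAD2L1, larger than the plain values. DLGAP5, by contrast, was at 0.29 and ANLN at 0.21 relative to theirs, and the call of ANLN was lost (adjusted p = 0.179). The calls of CDC20 (-0.15, adjusted p = 0.057), CENPA (-0.20, adjusted p = 0.0959) and KIF2C (-0.012, adjusted p = 0.898) were lost there too, besides those of AURKB, UBE2C and KIF11 given above. Of the 14 higher genes, 2 lay among neighbours with a negative median. CCNA2 (0.59), CCNB2 (0.32) and PTTG1 (0.28) had neighbours that were higher, and relative to these they passed the test as lower (-0.67, -0.37 and -0.45). Spearman's correlation between a gene's log2 fold change and its neighbours' median was 0.25 across the 33 genes and 0.28 across all tested genes, which share the same libraries.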

How the data were processed

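The authors deposited 1 table of raw read counts per gene, without normalization. Per the submitters' processing notes, the tools were CASAVA 1.8, featureCounts 1.5.0-p3 and HISAT2 2.0.5, listed with no roles. The sources used here do not give the build, the strand setting or how multiply matching reads were treated. Mouse is the labelled organism, but the rows carry human identifiers and symbols, which were used with the table's own coordinates and lengths. No human sequences were used here.

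Counts were tested with edgeR 4.0.16 (R 4.3.3): TMM scaling, default filter (10 counts minimum, 15 in total), quasi-likelihood test, two-sided, threshold 0.05, no covariate. CPM values are TMM-scaled, and intervals are 95%. Neighbour and length references entered the fit as offsets. DESeq2 1.42.0 and limma 3.58.1 gave alternatives. Libraries of a group differed by more than sampling noise, with a chi-square a gene of 5.83 (wild-type) and 2.21 over all genes and of 12.5 and 2.46 over the members. The fit was tested on simulated data.

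Members and lists were chosen with earlier results of these data known. Besides the members, up to 2 of the largest rises and falls per list were named, among genes called without overlap. The result of 1 gene that this rule names is not reported here.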

Additional observations from a re-analysis of the deposited data

How the results depend on the processing

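Over 16 alternatives, 455 of 528 values of the 33 genes kept their direction and side of the threshold, 47 lost the call, 11 gained one and 15 changed sign. CENPE, HMMR, CENPF, DLGAP5, KIF23, MKI67, TOP2A, AURKA, KIF20A, MAD2L1, CDC25B, CCNB1 and BIRC5 kept direction and call under all 16. The count of members called was 20 with the DESeq2 Wald test against 25 in the main test, beside 8163 and 10088 of all genes. Lower members were 7 under the length offset, which was chosen after seeing the data, as were the neighbour offset for counts and all alternatives for the replication list and for single genes of the other lists. Higher replication genes, 5 in the main test, were 3 with no composition factor, with the DESeq2 Wald test, with no expression filter and at a threshold of 0.01, and 3 to 5 without single libraries.

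With the replicate number as a block, 26 members were called (14 higher, 12 lower), PTTG1 among them (adjusted p = 0.0367), as were 10072 genes in all. Deviations of same-numbered libraries from their group means correlated at 0.029. With 2 libraries in each group, this correlation cannot tell whether same-numbered libraries share a batch.

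Sign changes without single libraries were in genes not called: CCNA2 (range over single libraries left out -0.16 to 2e-04), CCNB2 (-0.14 to 0.032), CDC25C (-0.0067 to 0.14), PLK1 (-0.12 to 0.032), BUB1 (-0.0084 to 0.21) and BUB1B (-0.013 to 0.22). Under the length offset CCNA2 (0.055), CCNB2 (0.089) and PTTG1 (0.019) changed sign. Under the neighbour offset CDC25C (-0.054), PLK1 (0.090), AURKB (0.12), TTK (-0.33), BUB1 (-0.11), UBE2C (-0.12), HASPIN (0.15), SMC4 (-0.22) and ENSA (-0.26) did. The cause was not tested. Depth limits NUSAP1 and CENPE most, with 91 to 220 reads per library.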
